A study of Aspergillus luchuensis with 6 samples.

Results

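In rice koji of the *Aspergillus luchuensis* mutant U1, 68 locus tags in 25 small clusters of neighbouring tag numbers kept at most 49.4% of their wild-type read level. These tags were chosen on the values themselves. A tag counted as falling when its wild-type mean was at least 10 CPM (counts divided by the library total and multiplied by 1000000), its U1 mean was at most 50% of the wild-type mean, and every U1 library lay below every wild-type library. The 66 tags from AKAW_05980 to AKAW_06045 were not considered. Of 11488 tags, 155 were falling (2.19% of the 7090 tags at 10 CPM or more in the wild type outside that range), and the 68 described here (43.9% of the 155) had another falling tag within 2 numbers. The remaining 87 stood alone. The U1 libraries are from the mutant strain U1, which the labels call a strong starch degrader and which the title traces to ion beam mutagenesis. They are set against libraries of the wild type (WT). Both strains carry the RIB2601 strain background, and each has 3 RNA-seq libraries from frozen koji. U1 is a single mutant strain, and the age of the koji is not given in the sources used here.

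*A. luchuensis* is a koji mould, a filamentous fungus that grows over steamed rice and secretes amylases, proteases and citric acid. In fungi of this genus the genes of a secondary metabolite pathway often lie side by side, and so do some genes for the use of particular nutrients. Such neighbours are often transcribed together under a regulator encoded in or near the group, and differences between strains or growth conditions then show as blocks of adjacent genes moving in step. Locus tags are serial numbers given along an assembly, so adjacent numbers usually mean adjacent genes. The files pair these tags with no gene name, and none of the tags matched the RefSeq table of the species used here, so no function is given to any tag below.

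The library totals ran from 4427719 to 8420828 counts in U1 and from 4025119 to 5064126 in WT, and the 68 members were covered in every library. The lowest count of a member was 7 reads in a U1 library and 32 reads in a WT library. The members took 0.694%, 0.643% and 0.578% of all counts in the U1 libraries, against 2.29%, 2.47% and 2.15% in the WT libraries. That is 0.638% ± 0.0584 in U1 and 2.30% ± 0.161 in WT (SD, n = 3 each). A single cluster of 10 tags supplied 66.2% to 67.8% of these reads in U1 and 64.2% to 66.4% in WT. Because the contrast of U1 with WT chose the members, their differences are given as description and carry no p-value.

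The level left in U1 ran from 2.67% to 49.4% of the WT level, with a median over members of 30.3%. In 3 members at most 10% of the WT level was left, in 23 at most 25%, and in 13 more than 40%. All 68 were tested and called lower by edgeR's quasi-likelihood test at an adjusted p under 0.05, where 13.1% of the 8790 tested tags were called lower. That count follows from the choice of members. On the log2 scale of that fit the members ran from -5.31 to -1.07 with a median of -1.79, while the median of all tested tags was 0.01. Close to the limits, AKAW_10574 was included at 49.4% of WT, and AKAW_09715, next to a cluster, was left out at 50.3%. By level, AKAW_02867 was included at a WT mean of 10.2 CPM, and AKAW_03923, inside a cluster, was left out at 9.33 CPM.

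The clusters were short. There were 16 clusters of 2 members, 6 of 3, 2 of 4 and 1 of 10. In 23 of the 25 the members had consecutive numbers, and in the other 2 a single number was skipped. The summed level of a cluster was 5.34% to 48.6% of WT in U1, with a median over clusters of 31.1%. At most 20% was left in 5 clusters and at most 25% in 8. Gene lengths are not given for these tags, so reads are compared between strains for each tag and not between tags.

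**Figure D1:**
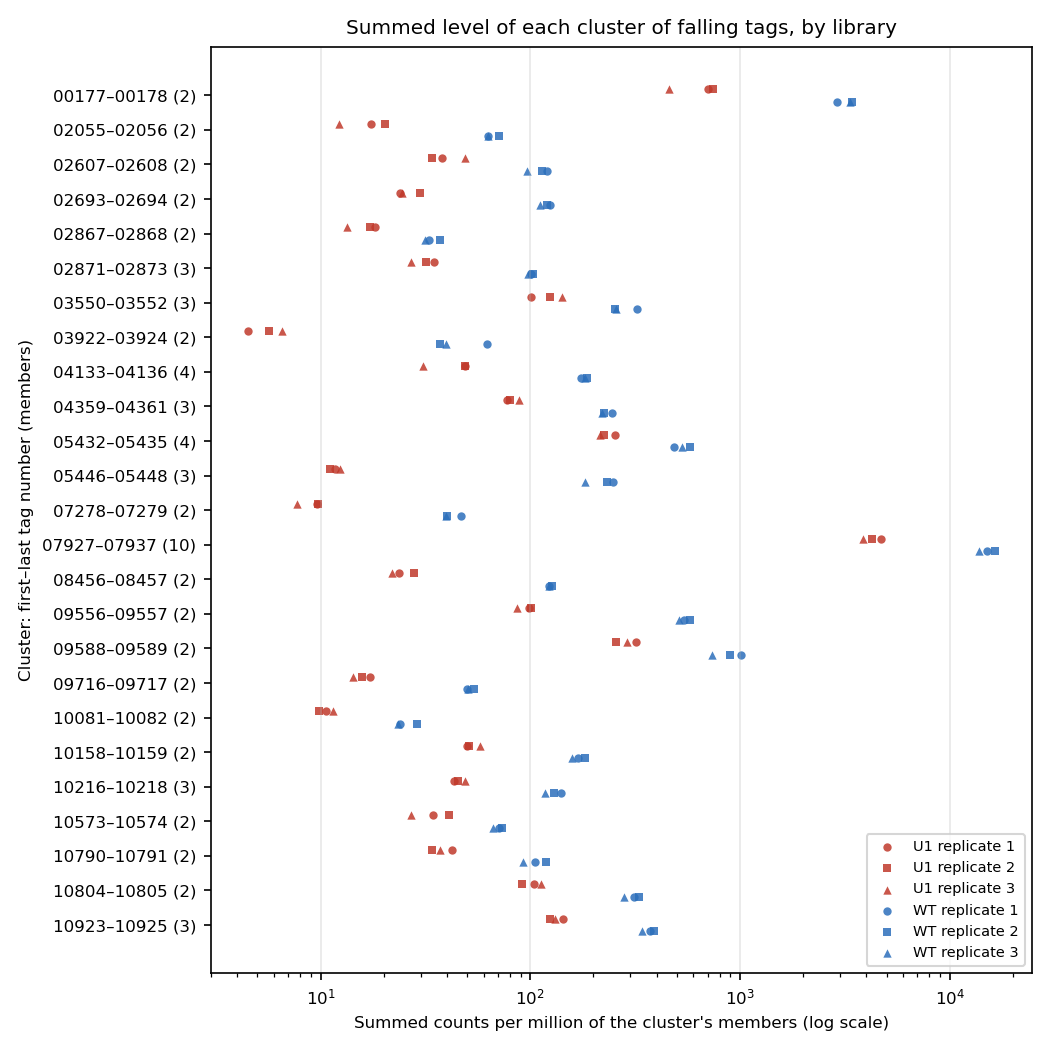
Summed CPM of each of the 25 clusters (log axis) in each of the 3 U1 libraries (red) and 3 WT libraries (blue), in tag order, with the number of members in brackets. In every row the red points lie left of the blue points, as the rule requires, and the distance between them is widest at AKAW_05446 to AKAW_05448, where 5.34% of the WT sum was left in U1.

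The deepest falls were in AKAW_05446 to AKAW_05448, a cluster of 3 consecutive tags. AKAW_05447 had 1.43, 2.01 and 1.58 CPM in the U1 libraries, against 67.1, 70.5 and 50.2 CPM in the WT libraries. Its 7 to 12 reads per U1 library left 2.67% of the WT level, a 37.5-fold difference and the largest among the members. AKAW_05448 had 4.39, 3.65 and 2.71 CPM in the U1 libraries, against 133, 117 and 95.6 CPM in the WT libraries, which left 3.11%. AKAW_05446 had 5.94, 5.47 and 8.13 CPM in the U1 libraries, against 46.6, 43.7 and 36.5 CPM in the WT libraries, which left 15.4%. The first tag of the cluster thus kept a larger share of its WT level than the 2 after it. The cluster sum was 11.8 ± 0.648 CPM in U1 and 220.2 ± 33.7 CPM in WT (SD, n = 3 each), and the 3 U1 sums, at 11.8, 11.1 and 12.4 CPM, lay close together. The next tag, AKAW_05449, was too low in WT to be a member, at 1.54 ± 0.364 CPM in U1 and 7.07 ± 2.06 CPM in WT (SD, n = 3 each). It was also called lower, at a log2 fold change of -2.24 ± 0.307 (SE). The tag before the cluster, AKAW_05445, was not called. AKAW_05443, 3 numbers before it, was called lower at -1.07 ± 0.183 on the log2 scale (SE), with 7.83 ± 1.29 CPM in U1 and 15.6 ± 2.29 CPM in WT (SD, n = 3 each).

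AKAW_03922 and AKAW_03924 formed the cluster with the second lowest level left in U1, 12.03% of the WT sum. AKAW_03922 had 2.26, 1.46 and 2.03 CPM in the U1 libraries, against 34.8, 19.7 and 20.1 CPM in the WT libraries. AKAW_03924 had 2.26, 4.20 and 4.52 CPM in the U1 libraries, against 27.4, 17.6 and 19.4 CPM in the WT libraries. Neither overlapped between strains, but WT replicate 1 was well above the other WT libraries for both, and the WT sum had the largest coefficient of variation (SD over mean) of the 25 clusters, 29.8%. The sum was 5.57 ± 1.02 CPM in U1 and 46.3 ± 13.8 CPM in WT (SD, n = 3 each). Without WT replicate 1, 14.5% of the WT sum was left. The tag between them, AKAW_03923, had 1.43, 2.19 and 2.94 CPM in the U1 libraries, against 11.3, 9.02 and 7.70 CPM in the WT libraries, and it was kept out by its WT mean alone. On either side the change ended at once. AKAW_03921, just before, rose, at 139 ± 10.4 CPM in U1 and 84.3 ± 6.23 CPM in WT (SD, n = 3 each; log2 fold change 0.66 ± 0.0836, SE, called higher), and AKAW_03925, just after, was not called, at 163 ± 7.47 CPM in U1 and 141 ± 5.11 CPM in WT.

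The largest cluster, AKAW_07927 to AKAW_07937, held 10 members and also the most reads. Its sum was 4707, 4257 and 3851 CPM in the U1 libraries, against 15078, 16382 and 13795 CPM in the WT libraries. This is 4272 ± 429 CPM in U1 and 15085 ± 1294 CPM in WT (SD, n = 3 each), so that 28.3% was left in U1. Its members kept 21.6% to 35.6% of their WT level, a narrow band beside the 2.67% to 49.4% of all members. The lowest share was left at AKAW_07927, with 106, 105 and 85.4 CPM in the U1 libraries, against 438, 526 and 412 CPM in the WT libraries. AKAW_07931 was nearly as low at 21.9%, with 169.7, 186 and 144 CPM in the U1 libraries, against 690.0, 809.8 and 781 CPM in the WT libraries. The 10 tags did not fall alike to within their error, since the log2 fold change was -2.28 ± 0.107 for AKAW_07927 and -1.56 ± 0.0880 for AKAW_07934 (SE).

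The member with the most reads, AKAW_07928, had 1456, 1239 and 1096 CPM in the U1 libraries, against 4733, 5041 and 4144 CPM in the WT libraries, and kept 27.2%. AKAW_07937 had 1239, 1067 and 943 CPM in the U1 libraries, against 3730.0, 4164 and 3567 CPM in the WT libraries, and kept 28.3%. AKAW_07935 had 778, 761 and 776 CPM in the U1 libraries, against 2479.8, 2558 and 2075 CPM in the WT libraries, with a coefficient of variation of 1.23% over the U1 libraries, and kept 32.5%. The highest share was left at AKAW_07934, 35.6%. AKAW_07929, AKAW_07930, AKAW_07932 and AKAW_07933 lay between, at 23.8% to 26.7%.

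Inside this cluster AKAW_07936 was no member, since it kept 58.1%. It had 54.0, 56.2 and 58.5 CPM in the U1 libraries, against 97.4, 103 and 89.9 CPM in the WT libraries, and was called lower at a log2 fold change of -0.86 ± 0.0844 (SE), the smallest change within the cluster. Just beyond the ends of the cluster the fall was smaller. AKAW_07926 before it and AKAW_07938 after it were called lower at -0.72 ± 0.110 and -0.42 ± 0.129 on the log2 scale (SE). One tag further out, AKAW_07925 was called higher, at 179 ± 10.2 CPM in U1 and 134 ± 10.95 CPM in WT (SD, n = 3 each). The call of AKAW_07938 was lost with library totals alone. The block of called tags thus ran over 13 consecutive numbers, or 12 without AKAW_07938, and of the 13 the first, the last and AKAW_07936 changed least.

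**Figure D2:**
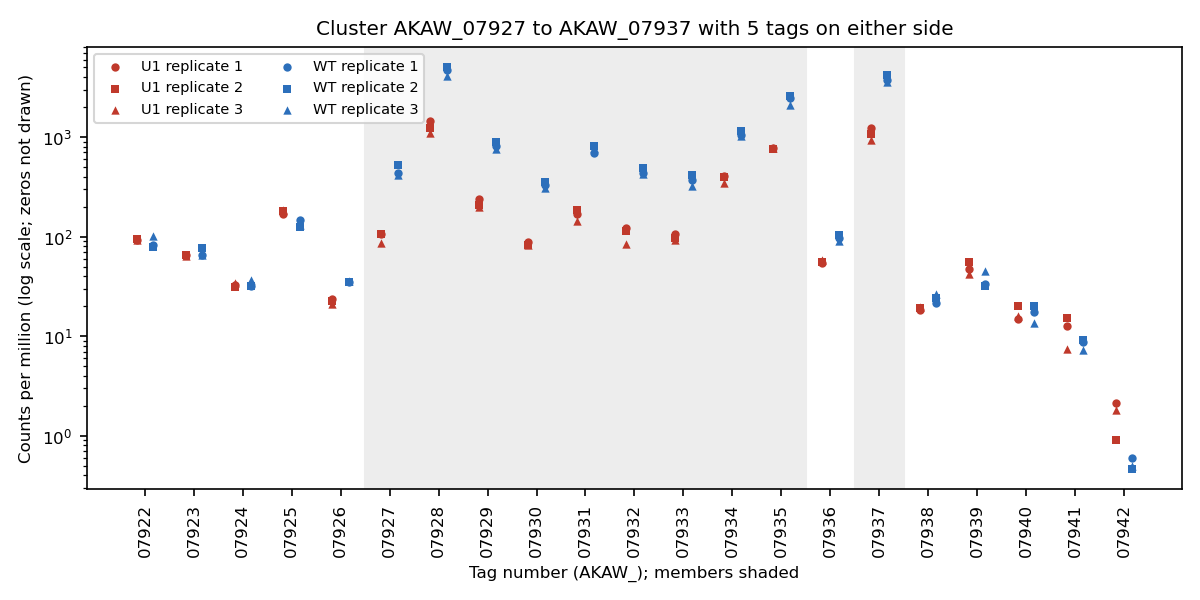
CPM (log axis) of the 10 members of AKAW_07927 to AKAW_07937 (shaded) and of the tags up to 5 numbers on either side, in each U1 (red) and WT (blue) library. Red and blue are far apart in the shaded part, nearer at AKAW_07936 (58.1% of WT left), and intermixed or reversed beyond AKAW_07926 and AKAW_07938.

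Of the 2 clusters of 4 tags, AKAW_04133 to AKAW_04136 fell further. Its sum was 49.05, 48.9 and 30.7 CPM in the U1 libraries, against 174, 187 and 182 CPM in the WT libraries, which left 23.7%. AKAW_04133 had 17.9, 15.7 and 7.23 CPM in the U1 libraries, against 60.4, 74.7 and 66.6 CPM in the WT libraries, and AKAW_04135 had 9.74, 10.9 and 8.58 CPM in the U1 libraries, against 48.4, 47.9 and 43.97 CPM in the WT libraries. These kept 20.3% and 20.9%. AKAW_04134 kept 25.3%, and the last tag, AKAW_04136, kept the most at 35.8%. U1 replicate 3 was the lowest library for all 4 members, and its sum was 71.6% of the U1 mean. Outside, AKAW_04132 was too low to be tested and AKAW_04137 was not called.

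AKAW_05432 to AKAW_05435 changed less, and its first and last members were nearer the limit of the rule than the 2 between. The sum was 253, 224 and 215 CPM in the U1 libraries, against 483, 576 and 527 CPM in the WT libraries, with 43.6% left in U1. AKAW_05435 had 142, 122 and 114 CPM in the U1 libraries, against 249, 291 and 284 CPM in the WT libraries, and kept 45.7%. AKAW_05432 kept 45.5%, AKAW_05433 36.9% and AKAW_05434 38.3%. This cluster ended 11 numbers before AKAW_05446, the start of the deepest cluster.

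Clusters of 2 tags made up the other deep falls. AKAW_00177 and AKAW_00178 gave a sum of 707, 742 and 458 CPM in the U1 libraries, against 2891, 3407 and 3338 CPM in the WT libraries, and kept 20.6% and 19.4%. U1 replicate 3 stood apart here, at 72.1% of the U1 mean. AKAW_09556 and AKAW_09557 gave 99.0, 101 and 86.5 CPM in the U1 libraries, against 539, 575 and 513 CPM in the WT libraries, and kept 16.3% and 19.2%. Their U1 sums varied less, with 95.6 ± 7.95 CPM in U1 and 542 ± 30.9 CPM in WT (SD, n = 3 each). In both clusters the 2 tags fell by similar ratios.

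AKAW_08456 and AKAW_08457 had a sum of 23.8, 27.9 and 21.9 CPM in the U1 libraries, against 123, 126 and 123 CPM in the WT libraries. AKAW_08457 kept 15.2%, AKAW_08456 22.8%, and the next tag, AKAW_08458, was called lower at -0.66 ± 0.110 (log2, SE). AKAW_07278 and AKAW_07279 summed to 9.62, 9.67 and 7.68 CPM in the U1 libraries, against 46.8, 40.2 and 39.5 CPM in the WT libraries. AKAW_07278 had few reads, 8 to 15 per U1 library, and kept 16.7%, while AKAW_07279 kept 22.9%. AKAW_02693 and AKAW_02694 summed to 23.9, 29.7 and 24.4 CPM in the U1 libraries, against 124, 120.3 and 112 CPM in the WT libraries, and kept 25.7% and 18.2%. The tag before them, AKAW_02692, was not called, at 415 ± 35.4 CPM in U1 and 361 ± 25.8 CPM in WT (SD, n = 3 each). No strain overlap was present in any of these sums, as chosen.

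The 5 other clusters of 3 tags kept 30.97% to 44.1% of their WT sums. AKAW_02871 to AKAW_02873 had a sum of 34.6, 31.9 and 27.1 CPM in the U1 libraries, against 101, 103 and 97.9 CPM in the WT libraries, and its members kept 26.9% to 35.03%, with AKAW_02873 lowest. AKAW_02867 and AKAW_02868 lay 3 numbers before it and kept 47.6% and 48.2%. The 2 tags between these clusters were not called, AKAW_02869 at a log2 fold change of -0.28 ± 0.103 and AKAW_02870 at 0.03 ± 0.150 (SE). AKAW_04359 to AKAW_04361 summed to 77.5, 79.7 and 87.9 CPM in the U1 libraries, against 245, 224 and 219 CPM in the WT libraries, and AKAW_10216 to AKAW_10218 to 43.2, 45.2 and 48.8 CPM in the U1 libraries, against 139.6, 129 and 117 CPM in the WT libraries. Their sums had coefficients of variation of 6.65% in U1 and 6.02% in WT for the first and 6.15% in U1 and 8.69% in WT for the second. In the first AKAW_04361 had the most WT reads and kept 38.8%, and AKAW_04359 kept the least, 30.6%. In the second AKAW_10217 had the most WT reads and kept 32.96%, and AKAW_10216 kept the least, 29.9%.

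AKAW_03550 to AKAW_03552 had a sum of 101, 125 and 142 CPM in the U1 libraries, against 321, 253 and 257 CPM in the WT libraries. Here U1 replicate 3 was the highest U1 library and WT replicate 1 the highest WT library. AKAW_03550 kept 47.8% and AKAW_03551, the lowest, 36.2%. The next tag, AKAW_03553, had 39.1, 38.3 and 37.5 CPM in the U1 libraries, against 81.4, 76.5 and 67.3 CPM in the WT libraries, and missed the rule at 51.0%. The tag before the cluster, AKAW_03549, was called higher, at 402 ± 47.9 CPM in U1 and 299 ± 30.1 CPM in WT (SD, n = 3 each). AKAW_10923 to AKAW_10925 summed to 143, 124 and 131 CPM in the U1 libraries, against 374, 387 and 342 CPM in the WT libraries, but its members were uneven. AKAW_10925, with 14 to 30 reads per U1 library, kept 21.2%. AKAW_10924, with the most WT reads, kept 32.9%, and AKAW_10923 kept 42.5%.

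The remaining 10 pairs, counting AKAW_02867 and AKAW_02868, kept 25.3% to 48.6% of their WT sums. The lowest was AKAW_02055 with AKAW_02056, which kept 34.9% and 18.1%, and the highest was AKAW_10573 with AKAW_10574, which kept 47.98% and 49.4%. Most reads among them fell on AKAW_09589, with 312, 250.1 and 283 CPM in the U1 libraries, against 989.5, 878 and 717 CPM in the WT libraries, or 32.7% left, while its neighbour AKAW_09588 kept 29.04%. AKAW_10158 and AKAW_10159 differed most within a pair. AKAW_10158 kept 12.4%, with 1.54, 1.46 and 2.94 CPM in the U1 libraries, against 18.6, 15.5 and 13.9 CPM in the WT libraries, and AKAW_10159 kept 33.1%, with 48.6, 49.4 and 54.9 CPM in the U1 libraries, against 150.5, 168 and 144 CPM in the WT libraries. Most reads of that pair were those of AKAW_10159, so the 31.1% left of the pair's sum mainly describes that tag.

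AKAW_10804 and AKAW_10805 kept 32.8% and 35.04%, and AKAW_10790 and AKAW_10791, which lay 13 numbers before them, kept 37.2% and 33.9%. AKAW_09716 and AKAW_09717 kept 24.8% and 33.9%, AKAW_02607 and AKAW_02608 46.7% and 35.05%, and AKAW_10081 and AKAW_10082 42.9% and 41.2%. The last of these pairs had the lowest WT sum of all clusters, at 10.6 ± 0.837 CPM in U1 and 25.3 ± 2.93 CPM in WT (SD, n = 3 each).

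The change varied less within clusters than between them. On the log2 scale of the ratio of mean CPM, the pooled SD within clusters was 0.45 and the SD of the cluster means was 0.72. The range within a cluster was under 0.5 in 16 of the 25 clusters and over 1 in 4. Its median was 0.41, where the standard error of a single member's log2 fold change had a median of 0.13. The upper limit of 50% that chose the members also narrows the range within clusters near it, and the similarity was not tested.

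**Figure D3:**
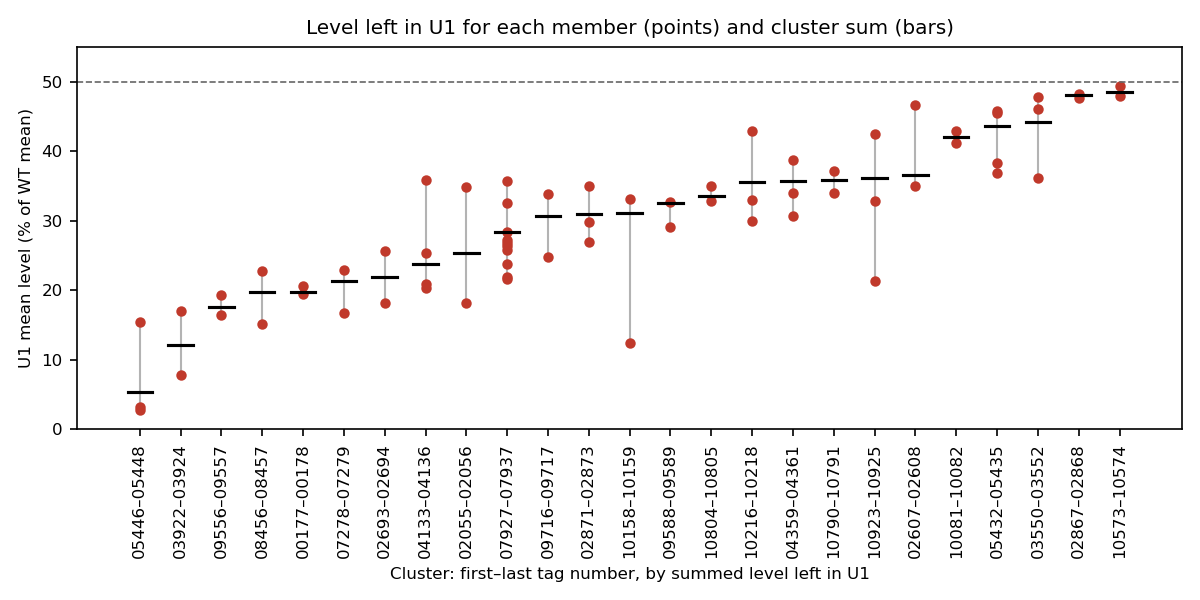
Level left in U1 as a percentage of the WT mean, for each member (red points) and for the cluster sum (black bars), with clusters ordered by the sum. The dashed line marks the 50% limit of the rule. Points of many clusters lie close together, while those of AKAW_10923 to AKAW_10925, AKAW_10158 to AKAW_10159 and AKAW_02055 to AKAW_02056 are the most spread out on this axis.

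The tags around the clusters show where the lower levels ended. There were 244 tags that were no member and lay inside a cluster or up to 5 numbers beyond it, of which 169 were tested. Of these 39 (23.1%) were called lower and 26 (15.4%) higher, where 13.1% of all tested tags were called lower and 11.4% higher. The same contrast kept these tags out of the members. When the fit used library totals alone, 33 neighbours (19.5%) were called lower and 34 (20.1%) higher, where 10.2% of all tested tags were lower and 15.8% higher. On that scale lower calls did not outnumber higher calls among the neighbours, but both shares stayed above those of all tested tags. Directly beside a cluster 15 of 35 tested tags (42.9%) were called lower, and 4 higher. At 2 numbers away it was 4 of 33 (12.1%), at 3 numbers 7 of 34 (20.6%), at 4 numbers 7 of 33 (21.2%) and at 5 numbers 5 of 35 (14.3%). A tag within reach of 2 clusters is counted at its distance from each. AKAW_02866, called lower, is thus counted both directly beside a cluster and at 5 numbers. Beyond the ends of the clusters the adjacent tags had the highest share, also with library totals alone (13 of 35, 37.1%), and the 2 tags inside a cluster were both called lower.

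An untested adjacent tag was counted as not called lower. Both adjacent tags were untested at 3 clusters, AKAW_07278 to AKAW_07279, AKAW_09556 to AKAW_09557 and AKAW_10923 to AKAW_10925. At 14 clusters, these 3 among them, no adjacent tag was called lower. At 7 clusters the tag at one end was, and at 4 clusters the tags at both ends were. Those 4 were AKAW_07927 to AKAW_07937, AKAW_09716 to AKAW_09717, AKAW_10216 to AKAW_10218 and AKAW_10804 to AKAW_10805. With library totals alone AKAW_07938 and AKAW_09718, the tags after the first 2 of these, were no longer called. AKAW_09718 had 122 ± 6.74 CPM in U1 and 137 ± 13.96 CPM in WT (SD, n = 3 each). After AKAW_10218, AKAW_10219 had 84.9, 82.1 and 78.4 CPM in the U1 libraries, against 137, 144 and 144 CPM in the WT libraries, without overlap, and a log2 fold change of -0.86 ± 0.0753 (SE). When tags too low to be tested are passed over, 15 clusters lay in a run of called tags longer than their number of members. The other 10 did not. For AKAW_03922 to AKAW_03924 the run was longer only through AKAW_03923, inside the cluster, and did not pass its ends. Of the 39 neighbours called lower, 9 had a fitted change of at least 2-fold. A falling tag within 2 numbers of a member would itself be a member, so the rule limited this count. The share over all tested tags is not given for it, so it is not read as few or many.

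At 4 clusters an adjacent tag was called higher. Besides AKAW_03921 and AKAW_03549, these were AKAW_10080 and AKAW_10157. AKAW_10080 had 63.1, 52.2 and 94.4 CPM in the U1 libraries, against 37.7, 29.8 and 32.8 CPM in the WT libraries, next to AKAW_10081. AKAW_10157 had 10.3, 9.12 and 7.001 CPM in the U1 libraries, against 3.55, 3.01 and 3.98 CPM in the WT libraries, next to AKAW_10158. The largest rises among the neighbours, named after their values were seen, stood a little further away. AKAW_09562, 5 numbers after AKAW_09557, had 52.8, 51.1 and 43.1 CPM in the U1 libraries, against 7.70, 10.6 and 7.95 CPM in the WT libraries, a log2 fold change of 2.43 ± 0.149 (SE). AKAW_10929, 4 numbers after AKAW_10925, had 94.1, 83.5 and 105 CPM in the U1 libraries, against 22.1, 17.6 and 17.6 CPM in the WT libraries, a log2 fold change of 2.21 ± 0.121 (SE). In both, all U1 libraries lay above all WT libraries, the opposite of the order in the members of the nearby cluster. Rises of at least 2-fold were called in 6 of the 169 tested neighbours (3.55%) and in 2.68% of all tested tags.

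**Figure D4:**
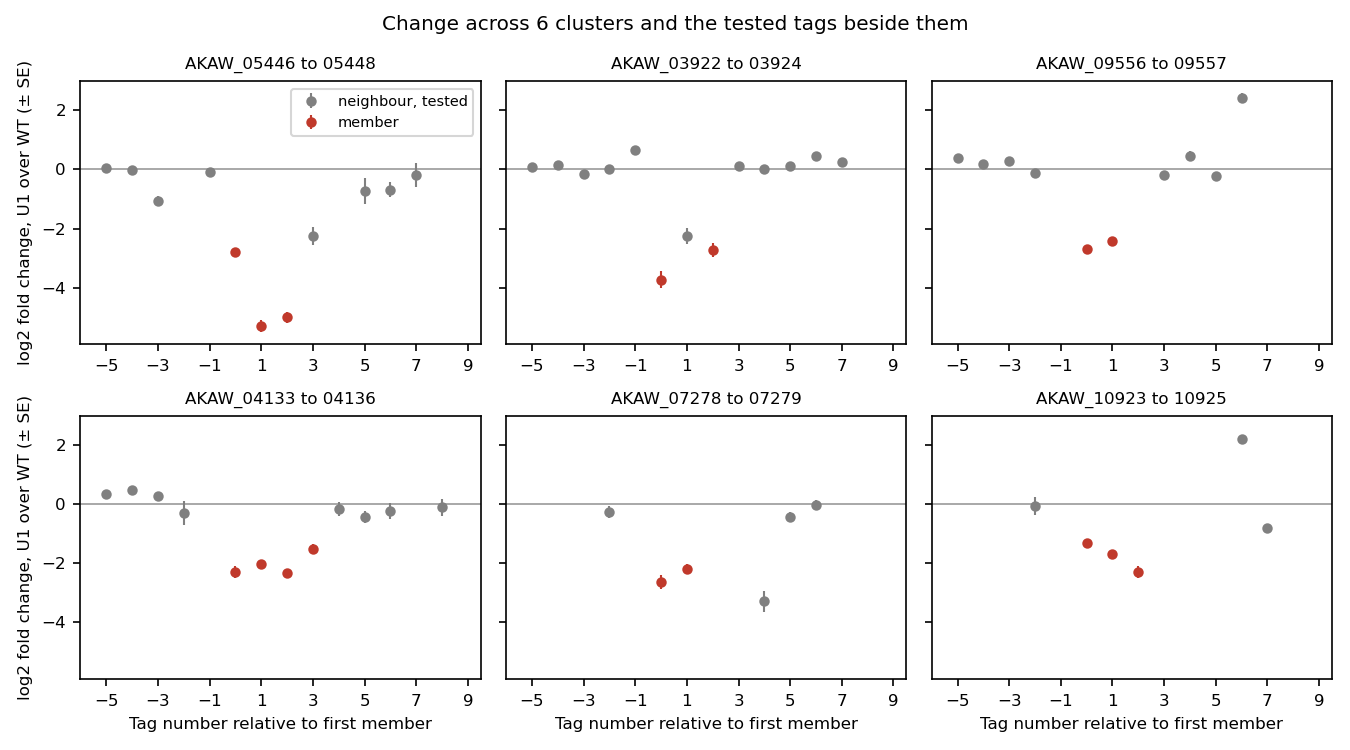
Log2 fold change of U1 over WT from the edgeR fit, with standard errors, for the members (red) and the tested neighbours (grey) of 6 clusters, by tag number relative to the first member. Untested tags are not drawn. The 6 clusters are a selection, without any of the 4 clusters that had called-lower tags at both ends. The neighbours drawn mostly lie near 0 beside members at -1.30 to -5.31. Over all 25 clusters, 15 of 35 tested adjacent tags (42.9%) were called lower. The lowest neighbours drawn are AKAW_05443 at -1.07 and AKAW_05449, AKAW_03923 and AKAW_07282, these last at -2.24 or lower, and the largest rises are 2.43 after AKAW_09557 and 2.21 after AKAW_10925.

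The spread between libraries of a strain was also compared with that of other tags. The median coefficient of variation of a member was 13.3% in U1 and 9.71% in WT, against 7.9% in U1 and 6.76% in WT for the 7047 other tags of at least 10 CPM in WT. The 87 falling tags that stood alone had higher medians than the members, 14.4% in U1 and 11.4% in WT, so the larger spread was not particular to the clusters. Counting error alone would give medians of 9.86% in U1 and 6.1% in WT for the members, and 5.07% in U1 and 6.08% in WT for the other tags. Both medians lay above the counting error, for members and for other tags.

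Within WT the members leaned in one direction. WT replicate 3 was the lowest WT library for 44 of the 68 members (64.7%) and the highest for 5 (7.35%), while it was the lowest for 32.98% and the highest for 39.1% of the other tags. WT replicate 2 was the highest for 40 members (58.8%) and WT replicate 1 for 23. The shift was small, since the median member stood at 93.4% of its WT mean in WT replicate 3. Over the cluster sums, WT replicate 3 was lowest in 17 of 25 and highest in 0. Among the 87 falling tags that stood alone WT replicate 3 was also the lowest most often, for 54 (62.1%), but the highest was most often WT replicate 1, for 45 (51.7%), and WT replicate 2 for 31 (35.6%). WT replicate 3 is also the WT library with the fewest counts, and the part of depth in this order was not tested. Without it the rule gave 81 tags in 30 clusters, with all 68 members among them.

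In U1 the order differed from cluster to cluster. U1 replicate 3 was the lowest U1 library for 33 of the 68 members (48.5%), against 27.4% of the other tags and 39.1% of the 87 falling tags that stood alone. Its cluster sums ran from 71.6% of the U1 mean at AKAW_04133 to AKAW_04136 to 121% at AKAW_02607 to AKAW_02608. It was low, under 75%, also for AKAW_00177 to AKAW_00178 and AKAW_02055 to AKAW_02056. It was the highest U1 library in 9 clusters, among them AKAW_03550 to AKAW_03552 and AKAW_03922 to AKAW_03924. Leaving out any 1 library moved no cluster's ratio by more than 1.21 times, but some clusters near the 50% limit then passed it. AKAW_02867 to AKAW_02868 kept 52.3% of the WT sum without U1 replicate 3 and 50.4% without WT replicate 2. The largest share left in any cluster under any scaling or left-out library was 53.7%. Whether the 3 libraries of each strain were grown as separate cultures is not stated in the labels, and the spread between them, on which every call rests, may be only technical.

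**Figure D5:**
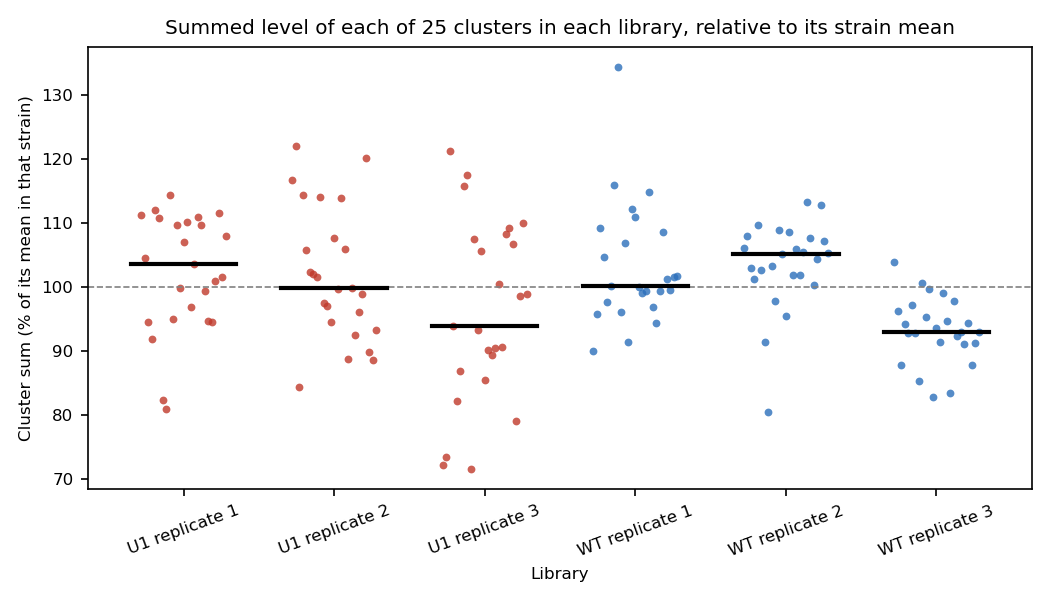
Summed level of each of the 25 clusters in each library, as a percentage of that cluster's mean in the same strain. Each point is a cluster and black bars are medians. WT replicate 3 lies mostly below 100% (median 93.01%), and U1 replicate 3 has the widest range, 71.6% to 121%.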

How the data were processed

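RNA from rice koji was sequenced in 3 U1 and 3 WT libraries. The submitters' processing notes name Trimmomatic 0.32 and BWA 0.7.12. The counter, genome build, annotation and strand setting are not given there, in the labels or in the files, and similar or overlapping genes may share reads. The authors deposited raw counts per locus tag, without normalization, for 11488 tags. No gene names accompany them, and 0 tags matched the 12941 genes of the RefSeq table, so lists of amylolytic and other genes had no members. Levels are CPM on library totals. Calls come from edgeR 4.0.16 (limma 3.58.1, R 4.3.3): filterByExpr (8790 tags), TMM factors (0.970 to 1.043), a robust quasi-likelihood fit on strain, Benjamini-Hochberg adjustment over all tested tags, and an adjusted p under 0.05. Standard errors are the size of the log2 fold change over the square root of F. A count of 3 reads equals 0.356 to 0.745 CPM. Floors cover counting error only.

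The members and lists were chosen with earlier results of these data known. Clusters are named by first and last tag. Named by rule were all members of clusters of 4 or more, the member with most WT reads and the one with the lowest ratio in smaller clusters, neighbours inside a cluster and those directly beside one at 100 CPM or more in WT. Other members and neighbours were named after their values were seen. Libraries of a strain differed by more than sampling noise (chi-square over its degrees of freedom 2.15 to 7.46), so none was treated as a repeat of another. The edgeR fit was run on simulated data with known changes first, and the steps that form and count clusters were not. Alternatives were DESeq2 1.42.0 scaling and Wald test, library totals, other filters and limits, the replicate block, and leaving out each library.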

Additional observations from a re-analysis of the deposited data

How the results depend on the processing

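The number of members followed the limits on level and ratio. With no minimum level there were 137 clustered tags in 50 clusters, and with a limit of 60% of WT there were 125 in 50 clusters, against 68 in 25. A minimum of 20 CPM left 54 and a limit of 40% left 53, while a minimum of 5 CPM gave 80. A reach of 1 or 3 numbers gave 65 or 72, and dropping the separation of libraries left 68. TMM or DESeq2 scaling gave 82 tags in 31 clusters, all 68 among them, because U1 levels near 50% then fall below it. Leaving out 1 library gave 65 to 81 tags in 24 to 30 clusters and kept 64 to 68 of the 68. The summed level left in U1 was 0.277 of WT, 0.265 to 0.290 when 1 library was left out and 0.266 without the cluster of 10 (added after the data were seen). The median over clusters was 0.311, and 0.303 to 0.324 when 1 library was left out. Of 225 values for single clusters under 9 alternatives, 0 changed direction, which the choice of members made all but certain. Of the 225, 11 moved by more than 1 SD, all of them on removal of the member with most WT reads. Over 1.5 times moved AKAW_10158 to AKAW_10159 alone, to 0.124. Called tags numbered 2153, and 1625 to 2284 under the other fits. With library totals alone 1385 were higher and 899 lower, against 1002 and 1151. Neighbours called lower numbered 31 to 44, against 39, and those called higher 20 to 34, against 26. Lower calls numbered 28 of 102 or 53 of 317 tested with a reach of 3 or 10 numbers. With the replicate block 2091 tags were called, and 40 neighbours were called lower. Same-numbered libraries did not deviate together (r = -0.033, -0.009 and -0.076 across tags), so the numbers were not taken as pairs. Fewer than 10 reads in a U1 library, as 4 members had, limit the precision of their ratios.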

Other observations

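With no minimum on the WT level, 9 further tags joined 5 of the 25 clusters, and their WT means ran from 0.226 to 9.33 CPM. AKAW_07278 and AKAW_07279 then extended over AKAW_07280, AKAW_07281 and AKAW_07282 to 5 consecutive tags. AKAW_07282 had 0.594, 0.547 and 0.678 CPM in the U1 libraries, against 4.94, 5.09 and 7.45 CPM in the WT libraries, from 11 reads in all of U1 and 77 in all of WT, and was called lower. AKAW_07281 had 4 reads in U1 and 41 in WT over the 3 libraries of each strain, and AKAW_07280 had 8 and 23, neither being tested. AKAW_05446 to AKAW_05448 were joined by AKAW_05444, which had too few reads to be tested, and by AKAW_05449. AKAW_10216 to AKAW_10218 were joined by AKAW_10215, with 30 reads in U1 and 63 in WT, and by the untested AKAW_10220. Of the 9 tags 4 were tested and all 4 were called lower. All were selected for being lower in U1, so these are values and not support.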
